A study of Rattus norvegicus with 2 samples.

Results

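The 60 genes described here code for proteins that switch growth factor signalling off again and for transcription factors that such signalling switches on within minutes. They were taken by symbol from the 17202 genes of the deposited table, by a rule that uses no measured value but was written with earlier results of these data known: dual-specificity phosphatases (Dusp), Sprouty (Spry) and Spred inhibitors, the ETS factors Etv1, Etv4 and Etv5, the Fos, Jun and Egr factors, and single genes such as Myc, Btg1 and Klf6. RNA came from primary oligodendrocyte precursor cells (OPCs) of wild-type rats, the glial cells that divide and mature into myelinating oligodendrocytes. One culture had amyloid-beta (Aβ), the peptide of Alzheimer plaques, at 1 µM for 2 days, and the other had DMSO, the solvent. Both grew in OGM medium. The labels describe the time of treatment in the same words for both cultures. The extraction text calls the cells adult, the design text speaks of developing animals, and the P1 in both titles is not explained, so the age is uncertain. Each condition gave 1 library, with a depth of 15117102 estimated counts under Aβ and 15019416 under DMSO.

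Growth factor receptors such as the PDGF receptor of OPCs act through Ras and a kinase chain that ends in the MAP kinases ERK, JNK and p38. Active ERK enters the nucleus and, through the serum response factor Srf and its partners, induces immediate early genes such as Fos and Egr1, whose products then regulate slower genes. Feedback follows: MAPK phosphatases remove the activating phosphates from the kinases, and Sprouty and Spred proteins act nearer the receptor. Because much of this feedback is itself induced by the pathway, Dusp6, Spry2, Spry4, Etv4 and Etv5 are widely read as markers of ERK activity. Immediate early transcripts peak and fade within hours of a stimulus.

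With no replicate, the values below compare 2 libraries and carry no p-value. Ratios are Aβ over DMSO on library sizes corrected by TMM, with 95% counting intervals, which cover counting error only. Genes counted as measured if they reached 1 CPM (counts scaled to library size) in either library, as did 52 of the 60 members and 13505 genes in all. A gene was called higher or lower when its log2 ratio, with 0.5 CPM added to both values, was at least 1.2-fold in size and its interval left out 1.

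The members differed little between the libraries. None of the 52 was called higher with Aβ, where 2.33% of all measured genes were. Called lower were 3 (5.77%), where 2.35% of all measured genes were. The 3 were Fosl1, an AP-1 factor induced through ERK, Dusp11, a phosphatase that acts on RNA 5′ ends, and Ier5l, an immediate early response gene. No member was 2-fold apart, against 0.674% of all measured genes in either direction. The ratio lay below 1 for 37 members (71.2%) and above 1 for 15, where 50.3% of all measured genes lay below 1 and 49.7% above. Their median log2 ratio was -0.046, beside -0.00078 over all measured genes.

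Regulatory sequence is shown for members with a site of the kind Srf or CREB acts through in the 125 bases before the gene start. It is also shown for the 3 genes called lower. Etv1, Klf6, Btg2 and Jund hold such sites further upstream and are not shown. The windows are the 125 bases before the gene start, from the RefSeq promoter table for build GRCr8, written 5′ to 3′ on the gene's strand. Capitals mark matches to the CArG box, which Srf binds, or to TGACGTCA, the full site of CREB and ATF factors.
Egr1, chr18:26736953-26737077, + strand: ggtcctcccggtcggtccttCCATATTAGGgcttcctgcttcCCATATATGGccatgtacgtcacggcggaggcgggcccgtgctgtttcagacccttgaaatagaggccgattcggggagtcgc
Egr2, chr20:21054442-21054566, - strand: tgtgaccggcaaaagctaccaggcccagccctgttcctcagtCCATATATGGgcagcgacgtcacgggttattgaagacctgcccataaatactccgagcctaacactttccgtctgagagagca
Srf, chr9:21923951-21924075, + strand: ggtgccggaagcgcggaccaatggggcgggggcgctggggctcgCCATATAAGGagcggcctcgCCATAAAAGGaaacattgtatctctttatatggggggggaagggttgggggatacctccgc
Dusp5, chr1:262543649-262543773, + strand: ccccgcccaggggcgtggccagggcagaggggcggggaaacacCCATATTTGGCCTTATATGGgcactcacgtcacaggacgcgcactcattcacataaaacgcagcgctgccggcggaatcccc
Ier2, chr19:40399248-40399372, + strand: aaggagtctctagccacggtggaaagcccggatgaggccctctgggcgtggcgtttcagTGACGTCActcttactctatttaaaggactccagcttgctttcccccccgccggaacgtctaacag
Dusp1, chr10:17184728-17184852, + strand: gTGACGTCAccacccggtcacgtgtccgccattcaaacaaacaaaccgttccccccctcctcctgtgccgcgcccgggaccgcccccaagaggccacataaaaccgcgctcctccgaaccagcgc
Dusp11, chr4:119942568-119942692, - strand: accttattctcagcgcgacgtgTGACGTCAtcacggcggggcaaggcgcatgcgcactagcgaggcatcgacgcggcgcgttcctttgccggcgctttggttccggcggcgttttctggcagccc
Fosl1, chr1:212183760-212183884, + strand: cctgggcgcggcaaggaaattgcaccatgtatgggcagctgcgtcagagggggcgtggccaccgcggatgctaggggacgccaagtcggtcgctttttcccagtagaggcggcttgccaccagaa
Ier5l, chr3:34143458-34143582, - strand: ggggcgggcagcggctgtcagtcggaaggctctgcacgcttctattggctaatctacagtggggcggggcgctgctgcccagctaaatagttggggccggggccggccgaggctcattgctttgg
Egr1 carries CArG boxes 105 and 83 bases before its start, Srf 81 and 61 bases before, and in Dusp5 the boxes at 82 and 72 bases stand side by side. No capital stands in Fosl1 or Ier5l, which says only that these letters are not in their windows.

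Over the 250 upstream bases of the same table, which holds 42 of the 52 measured members, 6 members (14.3%) had a CArG box on either strand: Dusp5, Egr1, Egr2, Etv1, Klf6 and Srf. Arc, Atf3, Dusp4, Dusp26, Egr3, Etv4, Fos, Ier3, Jun and Myc had no entry and were not searched. A CArG box was found in 1.62% of the 27457 genes of the table. The site TGACGTCA was found in 5 members (11.9%), Btg2, Dusp1, Dusp11, Ier2 and Jund, and in 1.78% of all genes. The AP-1 site TGANTCA was found in Dusp14 and Spry3, against 6.99% of all genes, the ETS site CCGGAAGT in 0 members, against 3.45%, and the Egr site GCGTGGGCG in Jund, against 0.535%. All were searched on both strands, and no match overlapped another in a member. The CArG members had ratios between 0.922 (Klf6) and 1.10 (Dusp5), and those with TGACGTCA between 0.613 (Dusp11) and 1.05 (Jund). Of the members with a CArG box or TGACGTCA, Dusp11 alone was called.

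Transcripts of the group were present at all levels. In TPM, which is per length, the measured members had a median of 14.0 TPM with Aβ and 14.5 TPM with DMSO, where all measured genes had medians of 19.96 TPM with Aβ and 19.37 TPM with DMSO. In each library 23 members stood above 20 TPM and 8 above 50 TPM. The most abundant was Btg1, with 279 TPM under Aβ and 286 TPM under DMSO. Arc was the least abundant measured member, at 0.91 TPM with Aβ and 0.62 TPM with DMSO. The same 10 genes were the highest members in both libraries. Together the 60 members held 0.218% of all counts with Aβ and 0.225% with DMSO.

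**Figure D1:**
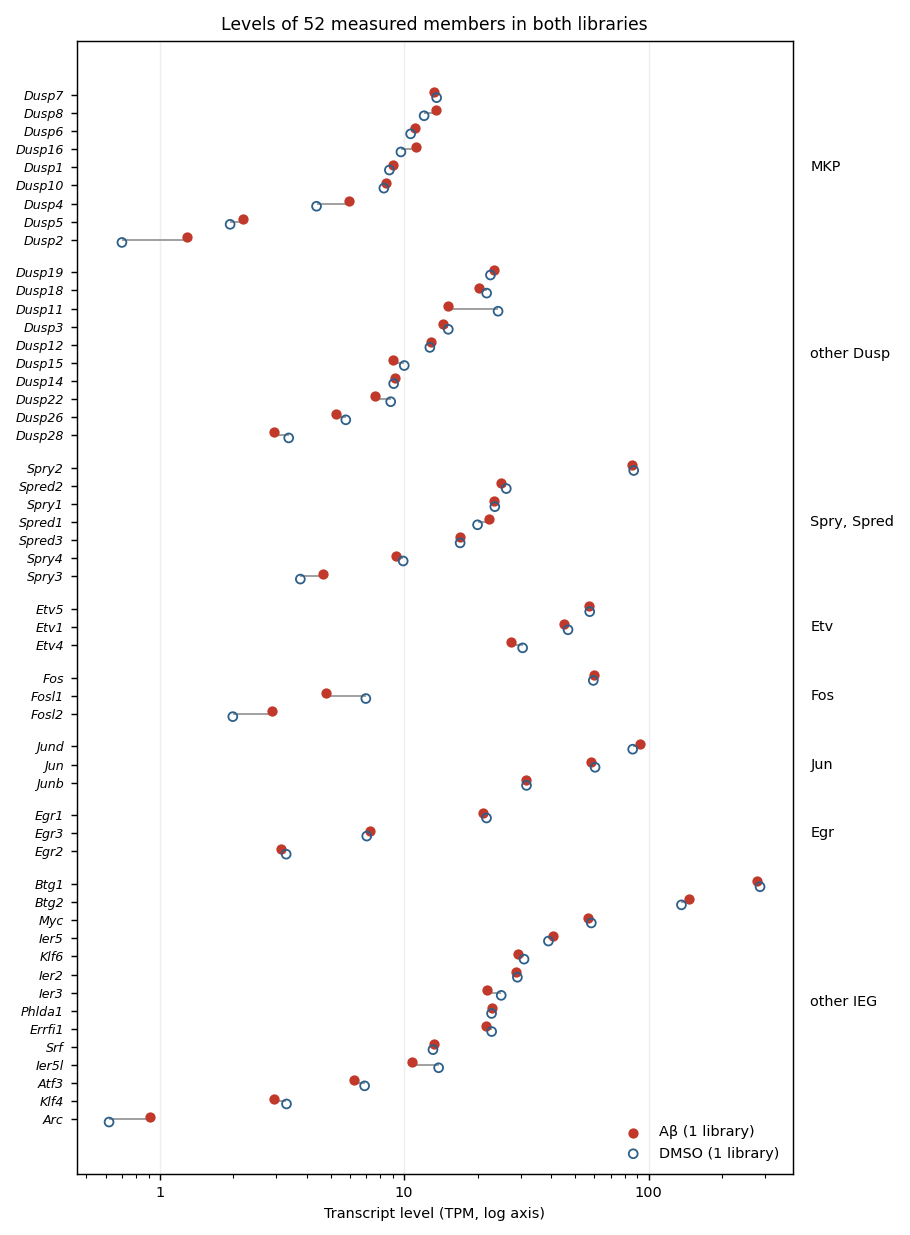
Transcript level in TPM (log axis) of the 52 measured members in the Aβ library (filled) and the DMSO library (open), 1 library each, grouped by family and ordered by level within it (MKP, MAPK phosphatases; IEG, immediate early genes). The pairs of points lie close together, with the widest visible gaps at Dusp2, Dusp11, Fosl1, Fosl2 and Arc.

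The MAPK phosphatases (MKPs), which dephosphorylate ERK, JNK and p38 directly, were all measured and none was called. Over all measured genes 4.68% were called in either direction. Of the 9 in the table, 7 had ratios above 1 and 2 below. The median was 0.12 on the log2 scale, and 0.020 when only members at 5 CPM or more were kept. Their counts summed to 2011 with Aβ and 1899 with DMSO, giving a ratio of 1.05 (0.986 to 1.12). Dusp7, a cytoplasmic phosphatase selective for ERK, had 396 counts and 13.3 TPM in the Aβ library, against 412 counts and 13.6 TPM in the DMSO library, a ratio of 0.953 (0.828 to 1.10). Dusp6, its close relative and the standard feedback gene of ERK, had 287 counts (11.1 TPM) with Aβ and 280 counts (10.6 TPM) with DMSO, giving a ratio of 1.02 (0.859 to 1.203). Both ERK-selective cytoplasmic enzymes thus had ratios near 1, though each interval passed 1.2-fold in a single direction.

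Among the MKPs that prefer JNK and p38, Dusp8 had 295 counts (13.5 TPM) with Aβ and 268 counts (12.1 TPM) with DMSO, giving a ratio of 1.09 (0.922 to 1.29). Dusp16 had 544 counts (11.2 TPM) with Aβ and 480 counts (9.70 TPM) with DMSO, giving a ratio of 1.12 (0.992 to 1.27). Dusp10 had 213 counts in each library (8.42 TPM with Aβ and 8.26 TPM with DMSO). Dusp16 had the highest ratio of these 3, and its interval still reached below 1. Of the inducible nuclear phosphatases, Dusp1, which is induced by growth factors and stress, had 154 counts with Aβ and 151 with DMSO, giving a ratio of 1.01 (0.803 to 1.27). The other nuclear MKPs were low: Dusp4 had 55 counts with Aβ and 41 with DMSO (ratio 1.33, 0.872 to 2.05), Dusp5 had 49 with Aβ and 44 with DMSO, and Dusp2 had 18 with Aβ and 10 with DMSO (ratio 1.79, 0.781 to 4.33). These 3 had the fewest counts of the MKPs, and all 3 intervals held 1. Dusp9 was not analysed here.

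The other Dusp genes code for atypical phosphatases, many of which act on substrates outside the MAPK chain. Of 14 listed, 10 were measured, 9 of them below 1 and 1 above, and their median log2 ratio was -0.13. Dusp11 had 131.25 estimated counts (15.2 TPM) in the Aβ library, against 212.4 (24.2 TPM) in the DMSO library, a ratio of 0.613 (0.489 to 0.766), the lowest of all measured members. Its counts are fractional, as arises when reads that fit several places are divided. Of measured genes with fractional counts 14.2% were called in either direction, against 3.24% of those with whole counts. A part of read division in the Dusp11 value was not tested.

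The remaining measured atypical enzymes had intervals that held 1. Dusp19, which binds a kinase of the JNK chain, had 164 counts (23.3 TPM) with Aβ and 161 counts (22.6 TPM) with DMSO. Dusp18 had 1050 counts (20.3 TPM) with Aβ and 1114 counts (21.8 TPM) with DMSO, giving a ratio of 0.935 (0.858 to 1.02). Dusp3, which acts on ERK and JNK, had a ratio of 0.924 (0.822 to 1.04). Dusp15, described as a target of Sox10 in rodent oligodendroglial cells, had 267 counts with Aβ and 302 with DMSO, giving a ratio of 0.877 (0.741 to 1.04). Dusp22 stood at 0.836 (0.645 to 1.08), Dusp26 at 0.893 (0.640 to 1.24), Dusp28 at 0.855 (0.480 to 1.51) and Dusp12 at 0.984 (0.767 to 1.26). Dusp14 had fractional counts of 100.67 with Aβ and 101.29 with DMSO, and with its near-copy Dusp14l1 it summed to 106 counts under Aβ and 103 under DMSO.

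**Figure D2:**
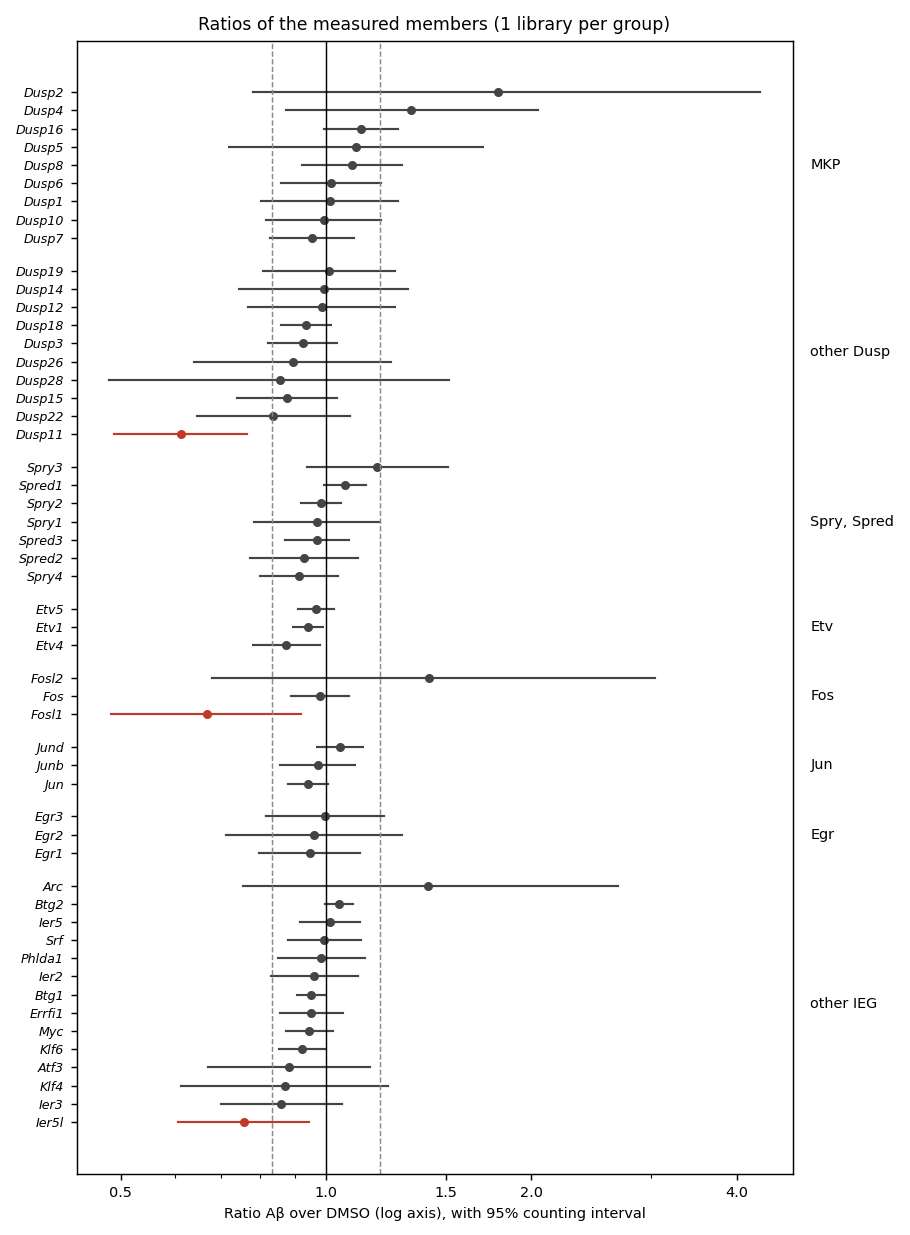
Ratio of each measured member, Aβ over DMSO (log axis), with its 95% counting interval, by family; the solid line marks 1 and the dashed lines 1.2-fold either way. Red marks Dusp11, Fosl1 and Ier5l, whose intervals lie below 1 and whose log2 ratios pass 1.2-fold; the widest intervals belong to Dusp2, Fosl2 and Arc, which have the fewest counts.

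Sprouty and Spred genes, the inhibitors that act between receptor and Raf, were measured in full. None was called, against 4.68% of all measured genes in either direction. Their counts summed to 5032 with Aβ and 4987 with DMSO, giving a ratio of 1.00 (0.962 to 1.04), and their TPM to 187 in each library. Spry2, the most abundant, had 1761 counts (86.0 TPM) with Aβ and 1778 counts (87.0 TPM) with DMSO, giving a ratio of 0.982 (0.919 to 1.05). Spry2 took 45.9% of the summed TPM of the 7 genes with Aβ and 46.5% with DMSO. Spry1 had 175 counts (23.3 TPM) with Aβ and 179 counts (23.5 TPM) with DMSO. Spry4, which is strongly induced by FGF and ERK, had 434 counts (9.23 TPM) with Aβ and 472 counts (9.91 TPM) with DMSO, giving a ratio of 0.912 (0.799 to 1.04). Spry3 lay on the other side, with 158 counts with Aβ and 132 with DMSO, giving a ratio of 1.19 (0.936 to 1.51).

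Spred proteins bring the Ras inhibitor neurofibromin to the membrane. Spred1 had 1601 counts (22.3 TPM) with Aβ and 1492 counts (19.97 TPM) with DMSO, giving a ratio of 1.06 (0.991 to 1.14). Spred2 had 233 counts (24.9 TPM) with Aβ and 249 counts (26.2 TPM) with DMSO, and Spred3 had 670 counts under Aβ and 685 under DMSO (17.0 TPM in each). All 7 ratios of Sprouty and Spred lay within 1.2-fold, which held for 86.5% of all measured members and 86.9% of all measured genes.

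The PEA3 group of ETS factors, which FGF and ERK signalling keep switched on, lay below 1 in all 3 genes, with a median log2 ratio of -0.089. Etv4 had 587 counts (27.4 TPM) in the Aβ library, against 666 counts (30.5 TPM) in the DMSO library, a ratio of 0.874 (0.781 to 0.978). Etv1 had 3118 counts (45.2 TPM) with Aβ and 3289 counts (46.8 TPM) with DMSO, giving a ratio of 0.940 (0.895 to 0.988). Etv5 had 2164 counts (57.0 TPM) with Aβ and 2221 counts (57.5 TPM) with DMSO, giving a ratio of 0.966 (0.910 to 1.03). The intervals of Etv1 and Etv4 lay below 1, but neither ratio was 1.2-fold in size.

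Fos and Jun proteins pair to form AP-1. In the Fos family, Fos had 803 counts (59.6 TPM) with Aβ and 814 counts (59.4 TPM) with DMSO, giving a ratio of 0.978 (0.886 to 1.08), and took 88.3% of the family's TPM with Aβ and 86.7% with DMSO. Fosl1 had 68 counts (4.77 TPM) in the Aβ library, against 101 counts (6.97 TPM) in the DMSO library, a ratio of 0.668 (0.484 to 0.917). Fosl2 had 20 counts (2.87 TPM) with Aβ and 14 counts (1.99 TPM) with DMSO, giving a ratio of 1.42 (0.681 to 3.03). Fosl1, Fosl2 and Fos thus lay below, above and close to 1, and of these the interval left out 1 for Fosl1 alone. Fosb, with 9 counts with Aβ and 5 with DMSO, was not measured. In TPM, Fos stood 12.5 times above Fosl1 with Aβ and 8.53 times with DMSO.

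All Jun genes had intervals within 1.2-fold. Jund, often linked to resting cells, had 1337 counts (92.6 TPM) with Aβ and 1265 counts (86.2 TPM) with DMSO, giving a ratio of 1.05 (0.970 to 1.13). Jun had 1720 counts (58.4 TPM) with Aβ and 1814 counts (60.5 TPM) with DMSO, giving a ratio of 0.940 (0.880 to 1.01). Junb had 491 counts (31.6 TPM) with Aβ and 501 counts (31.7 TPM) with DMSO. The order Jund, Jun, Junb in TPM was the same in both libraries.

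**Figure D3:**
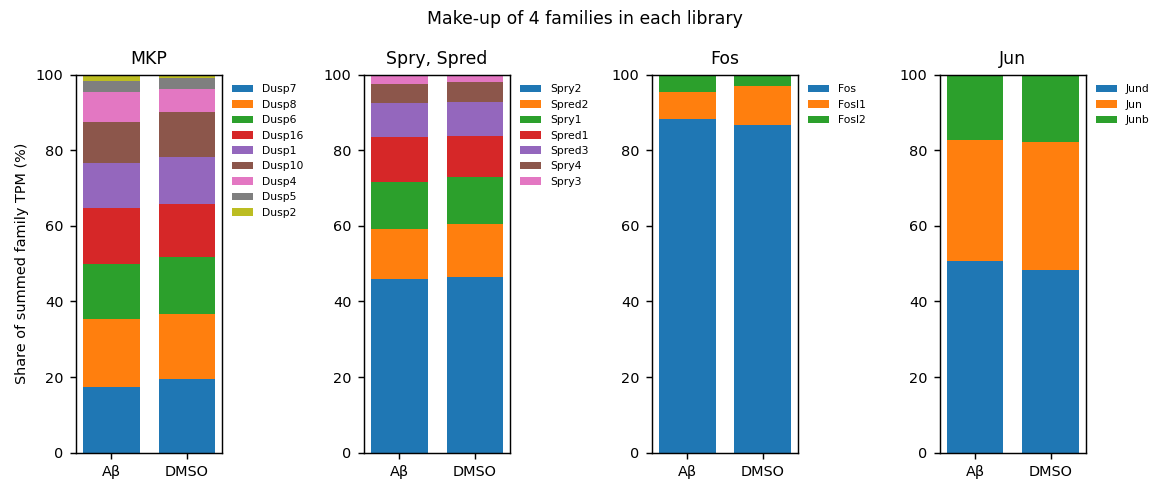
Share of the summed TPM of a family (percent, all its members in the table) taken by each measured gene, in the Aβ library (left bar) and the DMSO library (right bar), for 4 families. Spry2, Fos and Jund lead their families in both bars, with Spry2 at 45.9% with Aβ and 46.5% with DMSO and Fosl1 at 7.06% with Aβ and 10.2% with DMSO; Fosb, not measured, is not drawn.

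Egr zinc finger factors, the best known targets of Srf, lay close to 1. Egr1 had 270 counts (21.1 TPM) with Aβ and 283 counts (21.7 TPM) with DMSO, giving a ratio of 0.946 (0.798 to 1.12). Egr3 had 205 counts (7.24 TPM) with Aβ and 204 counts (7.03 TPM) with DMSO. Egr2, the master regulator of myelination in Schwann cells, had 92 counts (3.13 TPM) with Aβ and 95 counts (3.29 TPM) with DMSO. None of the 3 intervals left out 1, and Egr4, with 1 count with Aβ and 0 with DMSO, was not measured. Srf itself had 531 counts with Aβ and 530 with DMSO, giving a ratio of 0.994 (0.879 to 1.12).

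The other immediate early genes held the most abundant members. Of the 16 listed, 14 were measured, 11 of them below 1 and 3 above, and their median log2 ratio was -0.072. Btg1, which slows the cell cycle and recruits the deadenylases that shorten mRNA tails, had 3380 counts with Aβ and 3524 with DMSO, giving a ratio of 0.951 (0.907 to 0.998). Its relative Btg2, also a target of p53, had 3412 counts (146 TPM) with Aβ and 3243 counts (136 TPM) with DMSO, giving a ratio of 1.04 (0.994 to 1.10). The 2 antiproliferative relatives thus lay on opposite sides of 1, each by less than 1.2-fold, and the interval of Btg2 held 1. Myc, which drives growth and division, had 1213 counts (56.5 TPM) with Aβ and 1275 counts (58.3 TPM) with DMSO, giving a ratio of 0.944 (0.872 to 1.02). Klf6, a zinc finger factor, had 1210 counts (29.3 TPM) with Aβ and 1302 counts (31.0 TPM) with DMSO, giving a ratio of 0.922 (0.852 to 0.998).

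Within the Ier genes, Ier5l had 145 counts (10.7 TPM) in the Aβ library, against 190 counts (13.8 TPM) in the DMSO library, a ratio of 0.757 (0.606 to 0.945). Its relatives were closer to 1. Ier5, a partner of heat shock factor 1, stood at 1.01 (0.915 to 1.12), Ier2 at 0.960 (0.830 to 1.11) and Ier3, a regulator of cell death, at 0.859 (0.700 to 1.05). Ier3ip1 matches the rule by the start of its symbol alone, and its gene identifier is a pseudogene in the RefSeq table. It had 9 counts under Aβ and 10 under DMSO, too few to be measured.

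The measured genes left among the other immediate early genes, Errfi1, Phlda1, Atf3, Klf4 and Arc, had intervals that held 1. Errfi1, which blocks the EGF receptor, had 682 counts (21.6 TPM) with Aβ and 712 counts (22.8 TPM) with DMSO, giving a ratio of 0.950 (0.854 to 1.06). Phlda1 had 364 counts with Aβ and 367 with DMSO. Atf3, a stress factor of the CREB and ATF family, had a ratio of 0.882 (0.670 to 1.16) on fractional counts, and Klf4 had 64 counts with Aβ and 73 with DMSO. Arc, a gene of neuronal activity, had 27 counts with Aβ and 19 with DMSO, giving a ratio of 1.41 (0.755 to 2.68). Members below 1 CPM were Dusp13, Dusp14l1, Dusp23, Dusp27, Egr4, Fosb, Ier3ip1 and Klf2, each with 12 counts or fewer in both libraries. The rule's Nr4a pattern ends before the digit and matched no gene.

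Counting intervals lay wholly below 1 for 7 members (13.5%) and above 1 for 0, where 6.88% of all measured genes lay below and 6.49% above. The 7 were Btg1, Dusp11, Etv1, Etv4, Fosl1, Ier5l and Klf6. Of the 19 members with 1000 or more summed counts 4 lay below (21.1%), against 8.62% of the 6625 genes of that depth. Between 100 and 500 summed counts it was 3 of 18 members (16.7%), against 4.92% of 3006 genes. Between 500 and 1000 it was 0 of 9 members, against 5.33%, and under 100 it was 0 of 6, against 5.56%. Interval width set what could be seen. The interval lay within 1.2-fold for 18 of 52 members (34.6%), against 48.3% of all measured genes. Within 1.5-fold it lay for 39 members (75.0%), against 80.1% of all measured genes. For the 6 members under 100 summed counts, a difference of 1.2-fold was not detectable at this depth. The limit also reached members with 100 to 500 summed counts. Among these, the intervals of Egr2 (0.713 to 1.29) and Dusp10 (0.816 to 1.205), for example, passed 1.2-fold both ways. Some members with more counts had intervals that passed 1.2-fold in a single direction, such as Egr1 (0.798 to 1.12) and Dusp16 (0.992 to 1.27). For such members, not being called does not exclude a 1.2-fold difference.

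**Figure D4:**
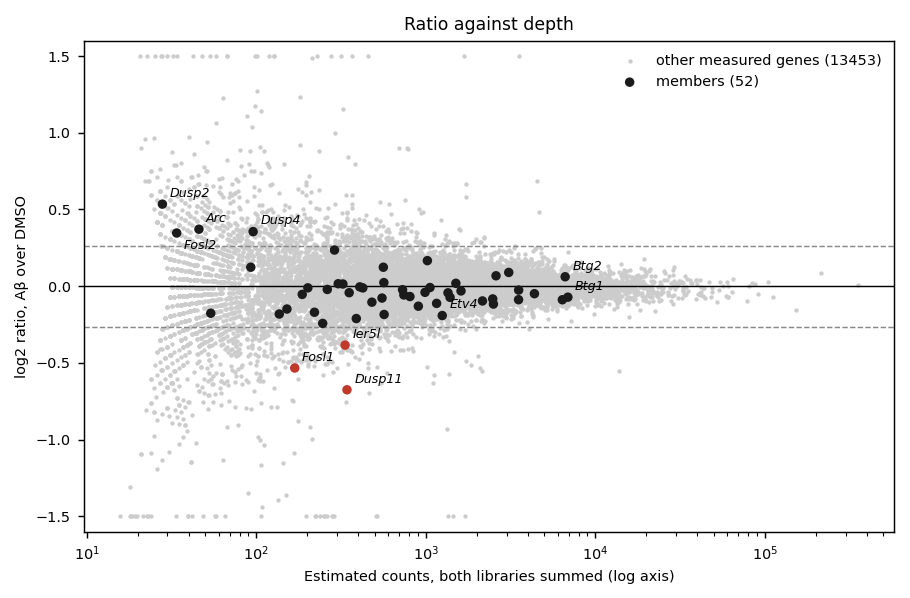
Log2 ratio, Aβ over DMSO, against the estimated counts of both libraries summed (log axis), for 52 members (black, and red where called lower) and all other measured genes (grey, drawn at the upper or lower edge where they lie beyond); dashed lines mark 1.2-fold. Members above 500 summed counts lie between the dashed lines, and those furthest from 0 have fewer counts.

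TPM gave the same picture with a shift. Over all measured genes the median log2 ratio was 0.037 in TPM, and over the members -0.016. On that scale 29 members lay below 1 and 23 above, where 36.3% of all measured genes lay below. The direction of 8 members differed between the scales, each close to 1, while Fosl1, Dusp11 and Ier5l were lower on both.

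The rest of the pathway, from lists of genes outside the rule, had ratios mostly close to 1. Over all measured genes 4.68% were called in either direction, so 0 called in lists this short says little about them. Of 31 genes of the ERK cascade, all measured, 18 lay above 1 and 13 below, none was called, and the median log2 ratio was 0.0085. Among these the ERK1 gene Mapk3 had 115 TPM with Aβ and 116 TPM with DMSO, and Rras, a Ras relative, had the lowest ratio, 0.845 (0.720 to 0.990). The JNK, p38 and ERK5 cascades had 0 of 25 measured genes called and a median of -0.023, with the p38 isoform Mapk11 lowest at 0.847 (0.736 to 0.975). Cofactors of Srf had 0 of 5 called and a median of -0.0059. Further feedback on receptor kinases had 0 of 19 called and a median of -0.0064, with the phosphatase Ptpn1 highest at 1.195 (1.05 to 1.36).

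Immediate early genes outside the rule had 0 of 30 measured genes called, against 4.68% of all measured genes in either direction. Of the 30, 15 lay above 1 and 15 below, with a median of -0.0031. The 3 Nr4a receptors, which the rule did not match, summed to 669 counts with Aβ and 613 with DMSO, giving a ratio of 1.08 (0.969 to 1.21). Each lay above 1, with Nr4a2, an orphan receptor, at 1.17 (0.918 to 1.48), and all 3 intervals held 1. Gadd45b, a stress sensor, stood at 0.776 (0.582 to 1.03). A published set of 10 genes used to score MAPK activity, of which 7 are members, had 0 called, 3 above 1, 7 below and a median of -0.036. Its lowest ratio belonged to the ephrin receptor Epha2, with 32 counts with Aβ and 49 with DMSO (0.648, 0.401 to 1.03).

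The cultures carried OPC markers. The 9 in the table were all measured and summed to 2380 TPM with Aβ and 2296 TPM with DMSO. Among them Olig1 was highest, at 850 TPM with Aβ and 841 TPM with DMSO. Pdgfra had 228 TPM with Aβ and 206 TPM with DMSO, and Cspg4 was lowest, at 14.4 TPM with Aβ and 13.2 TPM with DMSO. Transcripts used as markers of other cell types were also found, and whether OPCs or other cells carried them was not tested. Astrocyte markers were measured in 7 of 8, with Gjb6 at 1 count in each library. They summed to 1856 TPM with Aβ and 1768 TPM with DMSO, led by Gfap at 839 TPM with Aβ and 793 TPM with DMSO. Neuronal markers were measured in 8 of 8, with 682 TPM with Aβ and 659 TPM with DMSO. Microglial markers (4 of 8 measured) summed to 10.6 TPM with Aβ and 12.4 TPM with DMSO. Endothelial ones (3 of 5 in the table measured) summed to 1.44 TPM with Aβ and 1.37 TPM with DMSO. Those of fibroblasts and pericytes (3 of 6 in the table measured) summed to 5.46 TPM with Aβ and 5.02 TPM with DMSO. Lum and Rgs5, of the last list, had 0 counts with Aβ, and with DMSO Lum had 2 and Rgs5 had 1; no other marker in the table was at 0. Markers of mature oligodendrocytes (7 of 8 measured) summed to 598 TPM with Aβ and 559 TPM with DMSO. In such bulk RNA, fewer cells of a type and less RNA per cell cannot be told apart, and the part of these markers' cell types in the members' values was not tested.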

How the data were processed

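RNA from 2 OPC cultures, 1 with Aβ and 1 with DMSO, was sequenced as mRNA libraries built with a BGI kit, per the labels' protocols. Groups follow the treatment given for each sample. The submitters' processing notes name Bowtie2 and build Rnor_6.0. Quantifier, annotation release and strand setting are not stated. The deposited table holds the authors' estimated counts, which need not be whole, and the authors' TPM and FPKM values, per the file headers. Another 2 value columns, of normalized counts, were not used.

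Estimated counts were rounded to whole numbers and scaled by TMM (edgeR 4.0.16, R 4.3.3). Ratios carry 95% Clopper-Pearson intervals (scipy 1.17.1) conditional on the sum of both counts. With 1 library per group there is no test. Counts and ratios were checked on simulated data with counting error alone, which cannot show how cultures vary. FPKM served to derive gene lengths for the length alternative. All 60 members matched the RefSeq table by identifier, and 57 carry the same symbol there. Each measured member could be named, and of the lists up to 3 members with the largest log2 ratio and the most abundant ones. The members' rule reads symbols alone, but it and the lists were chosen with earlier results of these data known. Alternatives varied scaling (DESeq2 1.42.0 size factors among them), unit, pseudocount, filter, fractional counts, length and fold.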

Additional observations from a re-analysis of the deposited data

How the results depend on the processing

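No member was called higher with Aβ and none was 2-fold apart under any alternative run for these counts. The count of members called lower stayed at 3 or 2 except at a fold of 1.5, where it was 1, Dusp11. Leaving out genes with fractional counts removed Dusp11 from the table. The log2 ratio of Fosl1 ranged between -0.57 and -0.31, that of Dusp11 between -0.70 and -0.49 and that of Ier5l between -0.40 and -0.28, each nearest 0 with a pseudocount of 5 CPM. The median log2 ratio of members was -0.016 with TPM, where the TPM ratio was 1.03 times the count ratio in the median measured gene and between 0.990 and 1.05 times in members. Genes of the 8 lists called in either direction numbered 2, with 3 under TPM and with the length trend removed, 1 without fractional counts and 0 at a fold of 1.5. With no filter the median of the Fos genes was 0.16 and with a filter of 5 CPM -0.28, because Fosb then enters or Fosl2 leaves. Summing Dusp14 with Dusp14l1 was chosen after seeing the data and moved its ratio to 1.02. No paired analysis was possible because each group has 1 library. Depth limits members under 100 summed counts most.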

Other observations

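Partners of AP-1 and CREB that the rule leaves out held the 2 genes called among all 8 lists, both higher with Aβ. They were 2 of 19 measured genes of their list and 2 of 154 (1.30%) over the 8 lists, where 2.33% of all measured genes were called higher. The list's median log2 ratio was 0.064, with 10 above 1 and 9 below. Jdp2, which pairs with Jun and represses AP-1, had 115 counts with Aβ and 82 with DMSO, giving a ratio of 1.39 (1.04 to 1.87). In TPM it stood at 8.17 with Aβ and 4.57 with DMSO, giving a ratio of 1.79, so that the TPM ratio was 1.29 times the count ratio, where the median over all measured genes was 1.03. Crtc3, a coactivator of CREB, had fractional counts and a ratio of 1.28 (1.12 to 1.46). Atf4, the most abundant of the list, had 1616 counts with Aβ and 1618 with DMSO.

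Receptors that feed ERK in OPCs had 0 of 15 genes called, against 4.68% of all measured genes in either direction. Of the 15, 11 lay above 1, and the median log2 ratio was 0.029. The intervals of 4 of the 15 lay above 1 and of 0 below, where 6.49% of all measured genes lay above and 6.88% below. These shares were not matched for depth, and intervals are narrow at high counts. The 4 were Fgfr2, Ddr1, Pdgfra and Egfr. Fgfr2, an FGF receptor, had 1108 counts with Aβ and 976 with DMSO, giving a ratio of 1.13 (1.03 to 1.23). The collagen receptor Ddr1 had 7433 counts with Aβ and 6993 with DMSO, giving a ratio of 1.05 (1.02 to 1.09). Pdgfra, on fractional counts, stood at 1.08 (1.05 to 1.10) and Egfr at 1.08 (1.03 to 1.12).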
